A study of Mus musculus with 64 samples.

Results

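The Ifitm genes encode short membrane proteins, and 5 of them are described here: Ifitm1, Ifitm2, Ifitm3, Ifitm6 and Ifitm10. They were taken by gene identifier and symbol from every deposited count table that lists them, 5 of 38924 genes for LSK cells, 4 of 15790 for CMP, 5 of 27892 for GMP and 3 of 13050 for MEP. Ifitm6 is not in the MEP table, and Ifitm10 is in neither the CMP nor the MEP table. The family, and the setting of Ifitm1 apart from its paralogs, were chosen by measured values, the levels of these genes in Smarcd2 knock-out (KO) against other libraries. Levels in KO against HET and WT libraries are therefore given as a description, with no test and no adjusted p for the members. Comparisons that did not choose the genes, which are HET against WT, one progenitor population against another and library-to-library variation within a genotype, were tested.

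IFITM proteins sit in the plasma membrane and in endosomal membranes, where they hinder the fusion of enveloped viruses with the cell. IFITM3 acts mainly in endosomes and IFITM1 mainly at the cell surface, and several members are switched on by interferon through elements bound by STAT and IRF factors. In the mouse, Ifitm1 and Ifitm3 are also known from primordial germ cells, where they are called fragilis2 and fragilis, and stem and progenitor cells carry IFITM proteins without any interferon treatment.

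The series holds 64 bulk libraries from sorted fetal liver progenitors of C57BL/6 mice. The genotypes are Smarcd2 -/- (KO), Smarcd2 +/- (HET) and WT, with 9 KO, 9 HET and 5 WT libraries of LSK cells, 4, 7 and 3 of CMP, 3, 7 and 3 of GMP, and 4, 7 and 3 of MEP. All fetuses were aged 13/14 dpc by their labels, except that 1 CMP HET library is labelled 14.5 dpc. The Smarcd2 protein belongs to the chromatin remodelling complex BAF (SWI/SNF in mammals), and every group shares the strain, the tissue and a whole-animal genotype with no Cre or transgene named. LSK cells (lineage-negative, Sca1+ and cKit+, Mac+/low) hold the stem cells. The other gates lack Sca-1: CMP (common myeloid progenitors) are CD34+ with intermediate CD16/32, GMP (granulocyte-monocyte progenitors) CD34+ with high CD16/32, and MEP (megakaryocyte-erythroid progenitors) low for both. For these 3 gates the labels name CD177, while the antibodies listed for staining include CD117 (c-Kit). Whether the libraries of a group come from different fetuses is not stated, so p-values reflect the spread among libraries, part of which may be technical.

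Smarcd2 itself matched the labels in every population. It averaged 1.28 ± 0.41 CPM (counts per library of standard size after TMM scaling; SD) in KO, 33.7 ± 14.1 in HET and 55.9 ± 8.54 in WT LSK libraries, and at most 1.19 CPM in KO means of the other populations against WT means of 87.8 to 115 CPM. Gene counts per library totalled 1488328 to 5646315 in MEP, 1006090 to 6300070 in GMP, 1577073 to 8092644 in CMP and 4327582 to 24069833 in LSK. The 4 libraries with a TMM scaling factor under 0.8 stood apart: CMP HET 8 at 0.58, GMP HET 8 at 0.30, MEP HET 8 at 0.76 and MEP KO 15 at 0.57. GMP HET 8 correlated with its group at a median r of only 0.31. Of the sort markers, Cd34 averaged 34.02 ± 5.90 CPM in WT MEP and 852 ± 75.9 in WT CMP libraries. Neutrophil markers (S100a8, S100a9, Ngp, Ltf, Camp, Mpo and Elane), which are not sort markers, had a WT median of 26877 CPM in GMP. Their WT median was 3721 CPM in CMP, where 6 of them had reads, and 160 in MEP. Hepatocyte markers also had reads, with sums up to 4064 CPM in WT MEP and 1209 in WT GMP libraries. KO libraries 13 and 15 of CMP, GMP and MEP come from a series of titles, M34, that holds no HET or WT library.

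The 4 genes of the cluster are neighbours on chromosome 7 (GRCm38). Ifitm2 spans chr7:140954837-140955987 on the minus strand, Ifitm1 chr7:140967221-140969825 on the plus strand, Ifitm3 chr7:141009586-141010770 on the minus strand and Ifitm6 chr7:141015699-141017924 on the minus strand. Ifitm10 lies outside it at chr7:142325837-142373753, minus strand. The sequences around the start sites are shown because Ifitm1 and its closest paralogs differ there in the letters of the interferon-stimulated response element. Each runs from 100 bases before to 30 bases after the RefSeq start (GRCm38.p6), 5′ to 3′ on the gene's strand, with matches to GAAANNGAAA, the core of that element, in capitals. Ifitm1 is at chr7:140967976-140968105 (plus), Ifitm2 at chr7:140955932-140956061 (minus) and Ifitm3 at chr7:141010715-141010844 (minus).
Ifitm1: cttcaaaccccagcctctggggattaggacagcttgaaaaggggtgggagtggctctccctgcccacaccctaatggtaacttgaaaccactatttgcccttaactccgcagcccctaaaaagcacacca
Ifitm2: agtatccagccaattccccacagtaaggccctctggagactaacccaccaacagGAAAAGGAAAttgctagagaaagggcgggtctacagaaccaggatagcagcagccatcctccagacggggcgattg
Ifitm3: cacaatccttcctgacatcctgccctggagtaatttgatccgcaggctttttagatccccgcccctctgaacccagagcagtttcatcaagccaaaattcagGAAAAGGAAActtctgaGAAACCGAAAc

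Over the full 300-base windows (250 before to 50 after the start, both strands searched), Ifitm2 held 1 match to GAAANNGAAA at positions -46 to -37 and Ifitm3 held 2, at positions 3 to 12 and 20 to 29, counting the first transcript base as 1. Of 32851 RefSeq windows, 3.44% held the motif and 0.225% held it 2 or more times. TTCNNNGAA, the palindromic core of the STAT-binding GAS element, matched Ifitm3 at 14 to 22, where it overlaps the second GAAANNGAAA, and Ifitm6 at -10 to -2, against 8.30% of all windows. Neither motif was found in the windows of Ifitm1 or Ifitm10, which says only that these letters are not there. A single start of Ifitm1 was searched; GENCODE begins the gene further upstream, and that stretch was not searched.

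Ifitm1 was higher in KO libraries than in WT libraries in CMP, GMP and MEP. In MEP its levels were 115 CPM in KO 6, 165 in KO 11, 233 in KO 13 and 1969 in KO 15, against 6.52, 8.66 and 5.03 CPM in WT 2, 5 and 12. Each WT value rests on 15 to 23 reads and each KO value on 312 to 5553. Every KO library lay above every WT library, and KO 15 stood far above the other KO libraries. HET libraries had 9.93 CPM at the lowest, 14.0 at the median and 35.1 at the highest, so all of them lay below every KO library. The fitted log2 fold change was 6.52 ± 1.06 (SE) in KO against WT and 5.25 ± 0.68 in KO against HET. Without the libraries with a low scaling factor, KO 15 among them, these values were 4.69 and 3.70. In bulk libraries a larger share of Ifitm1-expressing cells and more Ifitm1 RNA per cell cannot be told apart.

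Megakaryocyte and endothelial markers were also high in MEP KO 15. The 4 megakaryocyte markers (Pf4, Itga2b, Gp9 and Gp1bb), all with reads, summed to 936 CPM in KO 15, against 150.3 to 175 in the other KO libraries, 69.5 to 174 in HET and 89.6 to 146 in WT. The 6 endothelial markers, 5 of which are in the MEP table, summed to 241 CPM in KO 15, against 44.6 to 47.8 in the other KO libraries, 39.0 to 217 in HET and 51.4 to 68.9 in WT, the highest HET value being that of HET 8. In KO 6, 11 and 13 the endothelial sums lay below those of all WT libraries, while the megakaryocyte sums of all KO libraries lay above those of all WT libraries, as Ifitm1 did. The part of these cells in the Ifitm1 levels was not tested.

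In GMP, Ifitm1 had 1405 CPM in KO 6, 387 in KO 13 and 1600.3 in KO 15, against 44.4, 100.6 and 84.4 CPM in WT 2, 5 and 12. No KO library overlapped the WT libraries. HET libraries spread from 14.6 CPM, which is 5 reads in the poor library HET 8, over a median of 53.3 to 472 in HET 7. HET 7 therefore lay above KO 13, and 2 of 3 KO libraries were above every HET library. The log2 fold change was 3.88 ± 1.10 in KO against WT and 3.01 ± 0.78 in KO against HET.

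Spike-in RNA took 2.52 to 3.06% of reads in KO, 0.00912 to 0.394% in HET and 0.149 to 0.233% in WT GMP libraries, so it separated KO from the rest, and its part in these values was not tested. The sum of basophil and mast cell markers was also higher in the KO libraries of this gate, though not every marker was. The 8 markers (Mcpt8, Prss34, Cpa3, Ms4a2, Fcer1a, Hdc, Cd200r3 and Gata2), all listed, summed to 2387 to 3714 CPM in KO, 202 to 1530 in HET and 527 to 1015 in WT libraries. Cpa3, a mast cell and basophil protease, had 1268 to 2291 CPM in KO, 23.4 to 635 in HET and 137 to 273 in WT. The defining basophil protease Mcpt8 had a median of 0 in KO, 8.77 in HET and 18.2 CPM in WT, and Fcer1a, the alpha chain of the IgE receptor, a median of 0 in KO, 0.98 in HET and 1.61 in WT. The 5 stromal markers (Col1a1, Col1a2, Col3a1, Dcn and Pdgfrb) summed to 23.7 to 54.3 CPM in KO, 3.36 to 134 in HET and 4.17 to 13.3 in WT. The endothelial markers summed to 24.4 to 185 CPM in KO, 9.93 to 234 in HET and 13.7 to 25.5 in WT GMP libraries. The part of any of these cells in the GMP values of the Ifitm genes was not tested.

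In CMP, Ifitm1 had 127 CPM in KO 6, 180.1 in KO 11, 175 in KO 13 and 399 in KO 15, against 118, 50.6 and 68.0 CPM in WT 2, 5 and 12. HET libraries ranged from 53.8 over a median of 73.1 to 81.5 CPM. KO libraries overlapped neither HET nor WT, although KO 6 and WT 2 were close. The log2 fold change was 1.47 ± 0.33 in KO against WT and 1.60 ± 0.25 in KO against HET. The 6 hepatocyte markers (Alb, Afp, Apoa1, Apoa2, Ttr and Trf), all with reads, summed to 34.5 to 120 CPM in KO, 29.7 to 1671 in HET and 289 to 735 in WT CMP libraries, so KO lay below WT, and their part in the Ifitm values was not tested.

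In LSK cells the Ifitm1 levels of the genotypes overlapped. KO libraries ranged from 115 over a median of 154 to 197 CPM and HET libraries from 77.5 over 107 to 138 CPM, while the WT libraries had 184 (WT19.2), 117 (WT21.1), 86.7 (WT21.5), 97.2 (WT22.8) and 148 CPM (WT24.10). Of the KO libraries, 6 of 9 were above every HET library but 1 of 9 was above every WT library. The log2 fold change was 0.29 ± 0.16 in KO against WT and 0.54 ± 0.13 in KO against HET.

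**Figure D1:**
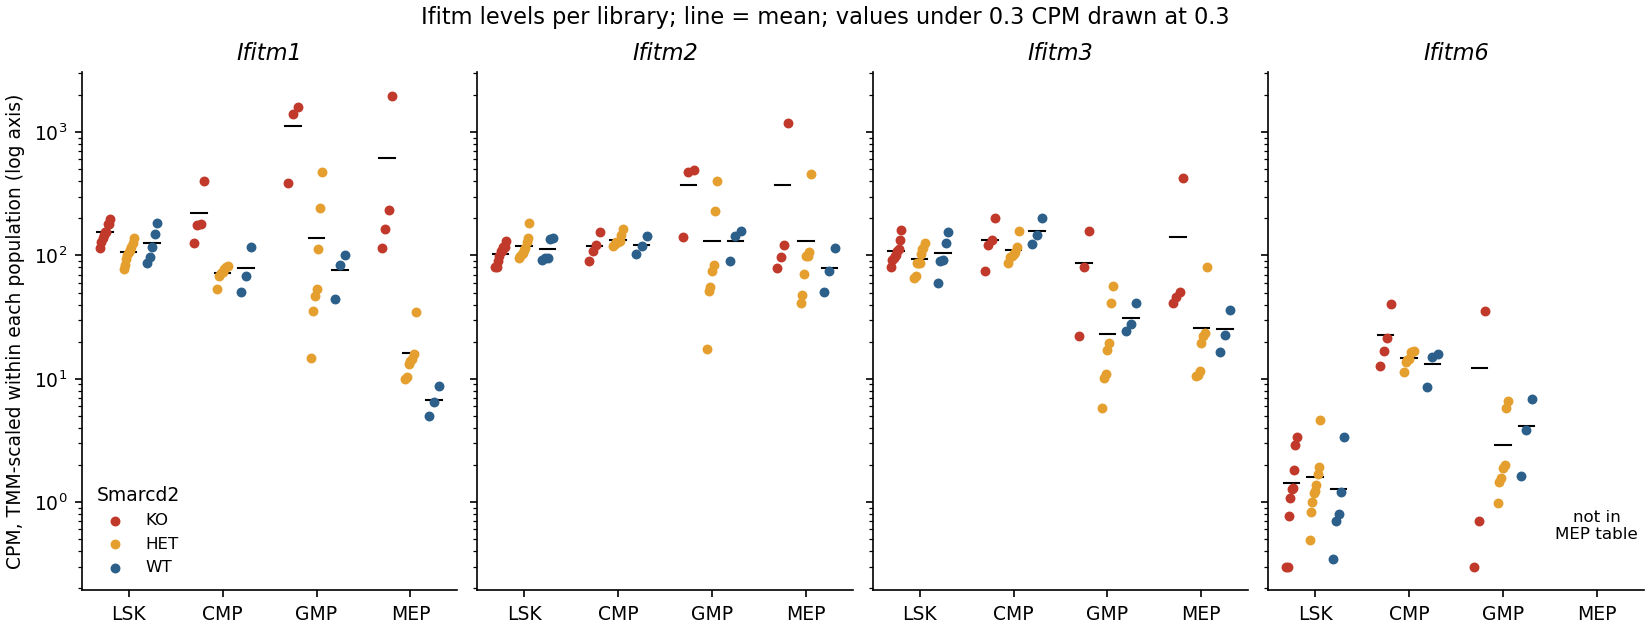
Levels of Ifitm1, Ifitm2, Ifitm3 and Ifitm6 in CPM (log axis, scaled within each population) in every KO, HET and WT library of LSK, CMP, GMP and MEP; points are libraries, lines are group means, and values under 0.3 CPM are drawn at 0.3. Ifitm1 in MEP separates the genotypes, from 115 to 1969 CPM in KO and from 5.03 to 8.66 CPM in WT libraries.

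Counting genes whose every KO library lay above every WT library puts these patterns beside the rest of the transcriptome. Ifitm1 met this in CMP, GMP and MEP, as did 8.97% of the genes tested (CMP), 5.83% (GMP) and 4.07% (MEP), and did not in LSK, where 2.77% of genes did. Ifitm3 met it in MEP as well. Against HET, Ifitm1 met it in CMP and MEP, where 2.09% and 0.573% of genes did, and in neither LSK (0.404%) nor GMP (1.39%). Since the genes were chosen with these contrasts known, nothing is read from these shares.

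Within a series of titles the direction was the same wherever KO and HET libraries could be set side by side. The ratio of mean Ifitm1 levels in KO over WT was 1.502 in CMP of series M32, 2.65 in CMP of M33, 19.38 in GMP of M32, 15.1 in MEP of M32 and 32.7 in MEP of M33. In LSK it was 0.887, 1.30, 1.60 and 1.04 in series 19, 21, 22 and 24, so one series ran the other way. KO over HET gave 1.53, 1.90, 1.43, 1.24 and 1.12 in LSK series 19, 20, 21, 22 and 24, and outside LSK 1.75 and 2.48 (CMP), 9.25 (GMP) and 9.57 and 7.61 (MEP). Each of these ratios rests on 1 to 4 libraries a side. With the series as a block, the log2 fold change in KO against WT was 0.94 in CMP and 4.22 in MEP.

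Ifitm2, a paralog whose protein likewise acts on virus entry, had KO levels close to those of WT in LSK and CMP. In CMP it had 89.7, 123, 109 and 154 CPM in KO 6, 11, 13 and 15, against 144, 102 and 118 CPM in the WT libraries, with the genotypes interleaved. The log2 fold change in KO against WT was -0.03 ± 0.18 in CMP and -0.11 ± 0.15 in LSK. In GMP, KO 6 and KO 15 were high at 489 and 478 CPM while KO 13, at 141, lay among the WT libraries at 90.4, 158 and 143 CPM, and the log2 fold change was 1.4997 ± 0.88. In MEP, KO libraries had 78.6, 97.3, 121 and 1194 CPM and WT libraries 115, 50.1 and 74.5. The MEP log2 fold change of 2.22 ± 1.03 rests on KO 15: without the libraries of low scaling factor it was 0.34, and with the series as a block -0.10. Ifitm2 counts carry a further uncertainty, because 48.5% of the 50-base words of its transcript also occur in transcripts of other genes, among them the predicted genes Gm45717, Gm11951, Gm8865 and Gm45308. The share was 5.02% for Ifitm1, 10.02% for Ifitm3 and 3.51% for Ifitm10, and Ifitm6 shared none.

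Ifitm3, the member with the broadest known antiviral range, had KO levels close to those of WT in LSK and CMP. Its log2 fold changes in KO against WT were 0.07 ± 0.19 and -0.24 ± 0.26. In MEP it had 41.1, 50.5, 46.2 and 426 CPM in KO 6, 11, 13 and 15, against 36.4, 16.6 and 22.82 CPM in WT. All KO libraries were above the WT libraries, which was so for 4.07% of the genes tested. HET libraries ranged from 10.6 over 19.49 to 80.9 CPM, the last in HET 8. The MEP log2 fold change was 2.47 ± 0.93, and 0.89 without KO 15. In GMP the KO libraries had 80.4, 22.3 and 157 CPM and the WT libraries 24.22, 41.0 and 27.8, with KO 13 below all of them.

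Ifitm6 and Ifitm10 were scarce. Ifitm6 in CMP had 12.7, 16.7, 21.46 and 40.1 CPM in KO 6, 11, 13 and 15, against 15.2, 8.53 and 15.8 CPM in WT, with a log2 fold change of 0.80 ± 0.31. In GMP it was at 0 and 0.707 CPM in KO 6 and KO 13 but at 35.7 CPM, from 190 reads, in KO 15, against 1.61, 6.87 and 3.87 CPM in WT. The GMP log2 fold change of 1.52 ± 1.39 turned to -3.59 without KO 15. In LSK the group means were 1.42 CPM in KO, 1.60 in HET and 1.28 in WT. Ifitm10 failed the filter on low counts in both tables that list it, with 27 reads over 12 of 23 LSK libraries and 16 reads over 3 of 13 GMP libraries. In each population the other listed members passed, 4 each of LSK, CMP and GMP and 3 of MEP.

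The ratio of Ifitm1 reads to Ifitm2 reads, taken within a library and so free of scaling, had a higher mean in KO than in WT in every population. In MEP it was 1.46, 1.69, 1.93 and 1.65 in KO 6, 11, 13 and 15, from 0.0763 to 0.242 in HET, and 0.0569, 0.173 and 0.0676 in WT. KO 15, which stood apart in level, did not stand apart in this ratio. In GMP the ratio was 2.87, 2.74 and 3.35 in KO 6, 13 and 15, against 0.491, 0.638 and 0.589 in WT, and in CMP 1.41, 1.47, 1.61 and 2.58 in KO 6, 11, 13 and 15, against 0.631 ± 0.17 in WT (SD, n = 3). In LSK it averaged 1.505 ± 0.21 in KO (n = 9), 0.905 ± 0.16 in HET (n = 9) and 1.12 ± 0.16 in WT (n = 5), and KO and WT overlapped, from 1.16 to 1.90 in KO and from 0.937 to 1.32 in WT. The ratio is not corrected for gene length and is compared only between libraries.

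The ratio of Ifitm3 to Ifitm2 reads averaged 0.445 ± 0.09 in KO (0.356 to 0.523), 0.210 ± 0.04 in HET (0.163 to 0.258) and 0.318 ± 0.01 in WT (0.306 to 0.331) MEP libraries, so the genotypes did not overlap there and HET lay lowest. In the other gates the KO and WT libraries overlapped. It averaged 0.217 in KO, 0.216 in HET and 0.241 in WT GMP libraries, 1.09 in KO, 0.825 in HET and 1.28 in WT CMP libraries, and 1.07 in KO, 0.806 in HET and 0.916 in WT LSK libraries.

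**Figure D2:**
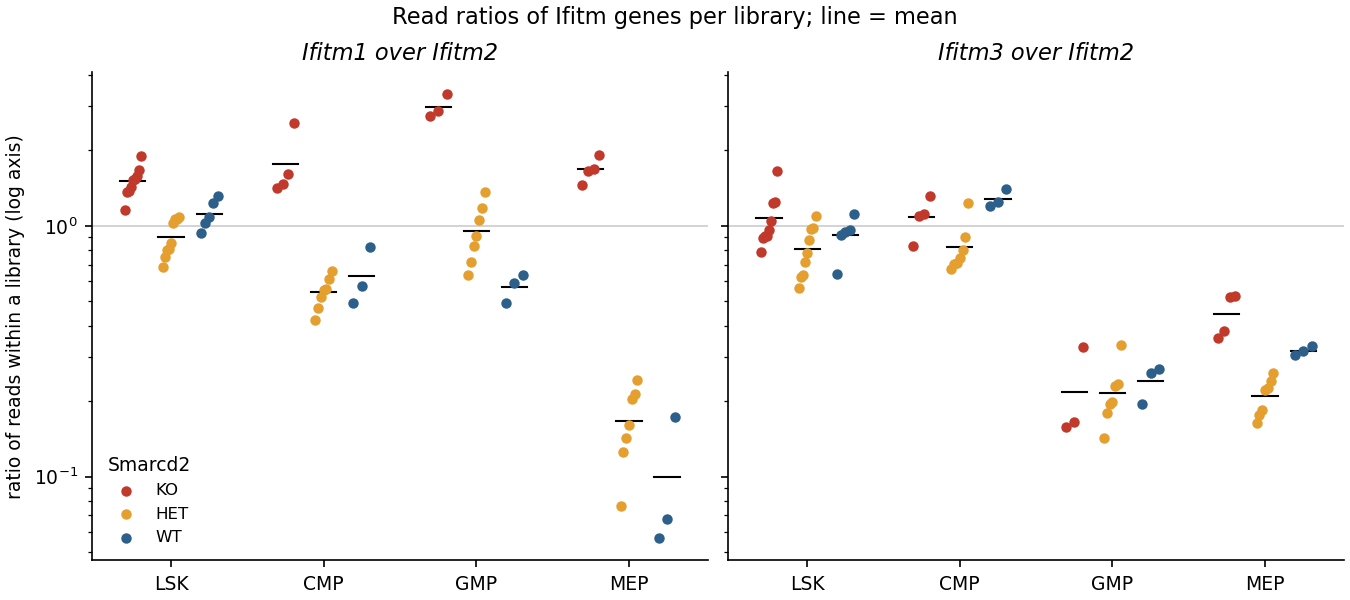
Ratio of reads between Ifitm genes within each library (log axis) in KO, HET and WT libraries of LSK, CMP, GMP and MEP; points are libraries and lines group means. The ratio of Ifitm1 to Ifitm2 lies between 1.46 and 1.93 in KO MEP libraries and at 0.242 or below in HET and WT.

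On a scale per kilobase of exon, which allows genes to be compared, Ifitm1 had the lowest mean of the 3 main members in WT LSK, WT CMP and WT MEP. In KO MEP libraries it averaged 567 ± 823 CPM per kb, beside 569 ± 836 for Ifitm2 and 208 ± 280 for Ifitm3. KO 15 carries these means: Ifitm1 was at 1800.0 CPM per kb there and at 105, 151 and 213 in KO 6, 11 and 13. In WT MEP libraries it averaged 6.16 ± 1.67 CPM per kb, beside 122 ± 49.8 for Ifitm2 and 37.3 ± 14.99 for Ifitm3. In KO GMP libraries the order was Ifitm1 at 1034 ± 596, Ifitm2 at 564 ± 302 and Ifitm3 at 128 ± 99.9 CPM per kb, and in WT GMP libraries Ifitm2 at 199 ± 54.1, Ifitm1 at 69.9 ± 26.4 and Ifitm3 at 45.7 ± 13.0. Within each WT GMP library Ifitm1 lay above Ifitm3. They were at 40.6 and 35.7 in WT 2, 92.0 and 60.4 in WT 5, and 77.2 and 41.1 in WT 12. In CMP, Ifitm1, Ifitm3 and Ifitm2 averaged 201 ± 111, 196 ± 78.1 and 181 ± 41.6 CPM per kb in KO, while WT libraries had 232 ± 58.8 for Ifitm3, 185 ± 31.7 for Ifitm2 and 72.1 ± 32.0 for Ifitm1. In LSK the 3 averaged 141 to 161 CPM per kb in KO. In WT they averaged 116 ± 36.2 (Ifitm1), 171 ± 36.9 (Ifitm2) and 154 ± 54.2 (Ifitm3). In HET they averaged 97.1 ± 17.7 (Ifitm1), 183 ± 42.5 (Ifitm2) and 139 ± 30.8 (Ifitm3). Ifitm1 lay below Ifitm2 within every HET and WT library of LSK, but not within every KO library. Ifitm6 stayed at or below 25.1 CPM per kb in every group mean.

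HET against WT asks whether losing 1 copy of Smarcd2 was enough to move these genes. No member passed edgeR's quasi-likelihood test with Benjamini-Hochberg adjustment over all genes in any of the 4 populations, where 0.00721% of genes passed in LSK and none in CMP, GMP or MEP. The smallest adjusted p was 0.562, for Ifitm1 in LSK at a log2 fold change of -0.25 ± 0.16. For Ifitm1 the log2 fold change was -0.13 ± 0.29 in CMP, 0.87 ± 0.87 in GMP and 1.27 ± 0.80 in MEP. The MEP HET libraries had 9.93 to 35.1 CPM of Ifitm1 and the WT libraries 5.03 to 8.66, on 15 to 23 reads each in WT. Without HET 7 the GMP value was 0.13. An unadjusted edgeR p under 0.05 was found for 11% of genes (LSK), 2.54% (CMP), 0.498% (GMP) and 0.762% (MEP). Of the members it was found for Ifitm3 in CMP alone, at a log2 fold change of -0.52 ± 0.23. HET libraries had 86.3 to 158 CPM there, and WT libraries 123 to 201 CPM. DESeq2 likewise called no member. Limma voom with quality weights called 4 in GMP, all lower in HET, with Ifitm1 at -0.83 (adjusted p = 0.0433), where edgeR gave the opposite sign; 50.9% of all genes passed by voom in that comparison.

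Whether the HET effect differed between populations was tested by its interaction. No gene passed edgeR's adjusted threshold in any of the 3 pairs of populations, 0.583% (GMP minus CMP), 1.06% (MEP minus CMP) and 2.24% (GMP minus MEP) of genes had an unadjusted p under 0.05, and no member was among them. For Ifitm1 the HET effect in MEP exceeded that in CMP by 1.37 ± 1.01 on the log2 scale, with an edgeR adjusted p of 1.0.

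Levels between populations within 1 genotype were compared in a joint fit of CMP, GMP and MEP, which share a scale; LSK counts come in other files and are not part of it. Ifitm1 was low in MEP. It averaged 166 ± 206 CPM in GMP HET, 15.4 ± 8.07 in MEP HET and 66.7 ± 8.61 in CMP HET libraries on that scale, and 85.2 ± 29.6 in GMP WT, 6.53 ± 1.80 in MEP WT and 72.1 ± 31.9 in CMP WT libraries. In HET libraries MEP fell below CMP by 2.10 ± 0.56 on the log2 scale (edgeR adjusted p = 0.00853) and GMP exceeded MEP by 3.43 ± 0.58 (edgeR adjusted p = 2.13e-05), or by 2.64 without GMP HET 7. In WT libraries the log2 difference of MEP from CMP was -3.47 ± 0.92 (edgeR adjusted p = 0.0205) and GMP exceeded MEP by 3.71 ± 0.92 (edgeR adjusted p = 0.00678). These calls stand against 10.2% of genes called between MEP and CMP and 17.7% between GMP and MEP in HET libraries, and 3.1% and 6.95% in WT libraries. GMP and CMP did not differ past the threshold for Ifitm1, with 1.33 ± 0.54 in HET (edgeR adjusted p = 0.147), which was 0.52 without GMP HET 7, and 0.25 in WT (edgeR adjusted p = 0.907). Leaving out CMP WT 2, MEP WT 2, MEP WT 5 or MEP WT 12 raised the edgeR adjusted p of the WT difference between MEP and CMP to 0.0981, 0.121, 0.0599 and 0.146, and without MEP WT 12 that between GMP and MEP was 0.0552.

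Ifitm3 was highest in CMP. In HET libraries it averaged 27.2 ± 23.2 CPM in GMP, 24.4 ± 23.5 in MEP and 101 ± 21.03 in CMP. GMP fell below CMP by 1.83 ± 0.50 on the log2 scale (edgeR adjusted p = 0.0214), in a comparison where 5.6% of genes were called, and MEP fell below CMP by 2.04 ± 0.50 (edgeR adjusted p = 0.0037). The WT differences had the same direction and a similar size, -2.04 for GMP and -2.56 for MEP against CMP, with edgeR adjusted p of 0.249 and 0.0599. With the title number as a block, which pairs the WT libraries of MEP and CMP, the difference of MEP from CMP was -2.58 (edgeR adjusted p = 0.0157). Without the libraries of low scaling factor both passed. Ifitm2 passed in none of the 6 comparisons, with log2 differences from -0.53 to 0.93, and no member passed between GMP and CMP in WT libraries, where 1.03% of genes did.

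Within a genotype, the libraries that were high in one main member tended to be high in the others, though some pairs were weaker. After subtracting genotype means from log2 CPM in LSK, Ifitm1 correlated with Ifitm2 over 23 libraries at r = 0.71 (permutation test, adjusted p = 0.00306 over 36 relations; rho = 0.71, adjusted p = 0.00749), and r was 0.67 without the 2 libraries farthest from the median. Ifitm1 correlated with Ifitm3 at r = 0.69 (permutation adjusted p = 0.00705; rho = 0.67, adjusted p = 0.0113), and r was 0.54 without 2 libraries. With the series subtracted as well, these were 0.63 and 0.59. Ifitm2 with Ifitm3 had a lower r of 0.52 in LSK (permutation adjusted p = 0.0423), and 0.47 without 2 libraries. Their rho of 0.47 did not pass (permutation adjusted p = 0.101). In GMP the 3 pairs had r of 0.94 to 0.98 over 13 libraries (permutation adjusted p = 0.00048 each; rho of 0.95 to 0.97, adjusted p = 0.00054), and 0.91 to 0.96 without 2 libraries. In CMP the 3 pairs had r of 0.76 to 0.83 over 14 libraries (permutation adjusted p of 0.0193 to 0.0423), but rho of 0.61 to 0.66 did not pass (adjusted p of 0.0957 to 0.107). Without 2 libraries the CMP r was 0.59 to 0.66. In MEP the relations of Ifitm1 with Ifitm2 (r = 0.90, rho = 0.84) and with Ifitm3 (r = 0.88, rho = 0.83) rest on the farthest libraries. Without those libraries r was 0.45 and 0.29. For Ifitm2 with Ifitm3 in MEP r was 0.99, and 0.91 without 2 libraries.

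Among LSK libraries the level of Ifitm3 went with the interferon response. The interferon index is the mean log2 CPM of the interferon-induced genes kept by the filter, 36 in LSK, again with genotype means subtracted. None of them is an Ifitm gene. Ifitm3 correlated with it at r = 0.69 (permutation adjusted p = 0.00306; rho = 0.64, adjusted p = 0.013), at 0.60 without 2 libraries and at 0.63 with the series subtracted. Ifitm1 had r = 0.08 (rho = 0.06, permutation adjusted p = 0.837 and 0.841) and Ifitm2 had r = 0.07 (rho = 0.12, permutation adjusted p = 0.841 and 0.721). The difference between these correlations was not itself tested. In CMP, GMP and MEP the index held 26, 24 and 22 genes, and no member's relation with it passed the threshold. In GMP r was -0.61 for Ifitm1, -0.66 for Ifitm2, -0.57 for Ifitm3 and 0.22 for Ifitm6 (permutation adjusted p of 0.127 to 0.741). Without 2 libraries these were -0.23, -0.27, -0.37 and 0.48.

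**Figure D3:**
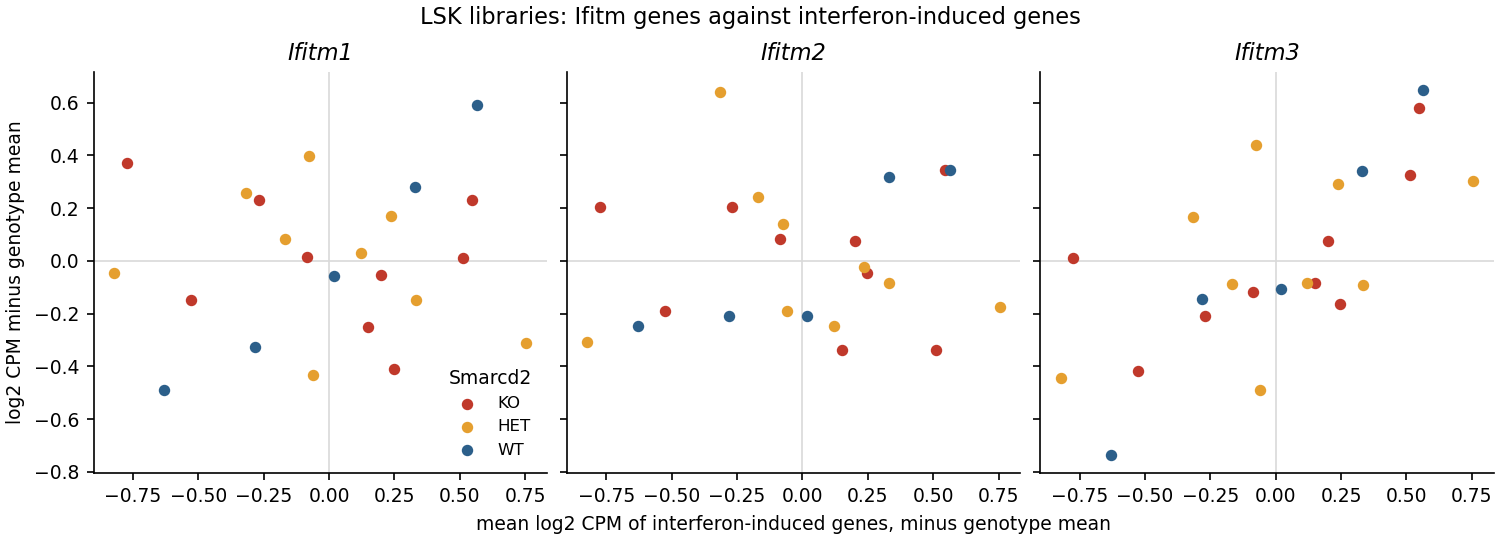
Ifitm1, Ifitm2 and Ifitm3 in the 23 LSK libraries, log2 CPM minus the genotype mean, against the mean log2 CPM of 36 interferon-induced genes, also minus the genotype mean; each point is a library, coloured KO, HET or WT. Ifitm3 climbs with the index (r = 0.69), while r was 0.08 for Ifitm1 and 0.07 for Ifitm2.

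The genes most like each member over the same 23 LSK libraries, among 12793 genes ranked by r of genotype-centred log2 CPM, differed between members. For Ifitm1 they were Zfp770 (r = 0.77), Marc2, Ifitm2, Myct1 and Upf3b (0.71). For Ifitm2 they were Pdzk1ip1 (r = 0.80), Hsd17b11, Elp5, Mkrn2 and Pan3. For Ifitm3 they were Xaf1 (r = 0.83), Ifi27l2a, Phf11b, Bst2 and Ube2l6, of which Xaf1, Ifi27l2a and Bst2 are in the interferon-induced list. Ifitm1 ranked 18th and Ifitm2 222nd in likeness to Ifitm3. The ranks are a description, since the best of many genes is picked.

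In KO against WT the interferon-induced genes had their highest median in LSK, though fewer of them were tested in the other populations. The lists of this and the next paragraph were chosen with earlier results of these data known, so their calls are a description. Of the 36 interferon-induced genes, all tested in LSK, 29 rose and none fell by edgeR's adjusted p, where 18.8% of all genes passed and 9.53% rose. Their median log2 fold change was 1.26, beside 0.01 over all genes. Rsad2 (viperin, an antiviral radical enzyme) rose by 2.26 ± 0.37 (edgeR adjusted p = 2.84e-04), Dhx58 (the RNA sensor LGP2) by 1.71 ± 0.29, Ifi35 by 0.78 ± 0.14 and Trim25 (a ubiquitin ligase of RNA sensing) by 0.62 ± 0.11. In CMP 7 of 26 rose and none fell, where 1.84% of all genes passed and 1.02% rose, with a median of 0.56. Ifi27 rose by 1.69 ± 0.22 (edgeR adjusted p = 2.1e-04), Usp18 (which removes ISG15 from proteins) by 2.08 ± 0.37, Rtp4 by 1.79 ± 0.38 and Igtp (an immunity-related GTPase) by 1.13 ± 0.24. In GMP 0 of 24 passed edgeR's adjusted threshold, as did 0.204% of all genes, and 5 had an unadjusted p under 0.05, as did 6.45% of all genes. In MEP 0 of 22 passed, as did 0.00856% of all genes, and 5 had an unadjusted p under 0.05, as did 6.92% of all genes. Their medians were 0.11 in GMP and 0.49 in MEP, beside 0.00 and 0.06 over all genes; DESeq2 called none in either, and limma voom 2 in MEP, where it called 1.36% of all genes. The CMP calls over this list and the factors below, 9 in all, depended on single libraries: 3 were left without WT 2, WT 12 or KO 15, 4 without WT 5, 5 without KO 11 or KO 13, and 1 with the series as a block.

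Among the factors that carry interferon signals to genes, Stat2 (1.09 ± 0.14), Irf9 (0.99 ± 0.16), Irf7 (1.79 ± 0.37), Irf1 (0.42 ± 0.09) and Irf2 (0.45 ± 0.11) rose in LSK by edgeR, with adjusted p from 1.3e-05 to 0.00554. Irf5 (0.25), Stat3 (0.16), Irf3 (0.01) and Irf8 (-0.17) did not pass. In CMP, Irf9 (0.91 ± 0.19) and Irf1 (0.66 ± 0.16) rose (edgeR adjusted p of 0.0125 and 0.0356), and Irf8 (0.66), Irf7 (1.27), Irf2 (0.36), Stat2 (0.48), Irf3 (0.16), Irf5 (0.19) and Stat3 (0.09) did not pass. None of these factors passed in GMP or MEP, where values ran from -2.33 for Irf8 to 2.14 for Irf7 in GMP and from -1.46 for Irf5 to 0.68 for Irf7 in MEP. Of 7 receptor chains and their kinases, Ifngr1 (0.43 ± 0.09) and Ifnar2 (0.26 ± 0.08), chains of the interferon gamma and alpha/beta receptors, rose in LSK (edgeR adjusted p of 0.00154 and 0.0241), and none passed elsewhere. No interferon ligand gene of the 9 listed passed the filter on low counts in any population. The 5 genes that modify or bind IFITM proteins, Zdhhc20 (which attaches palmitate), Nedd4 (a ubiquitin ligase), Setd7 (a lysine methyltransferase), Zmpste24 and Vapa, included none that passed in any population.

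**Figure D4:**
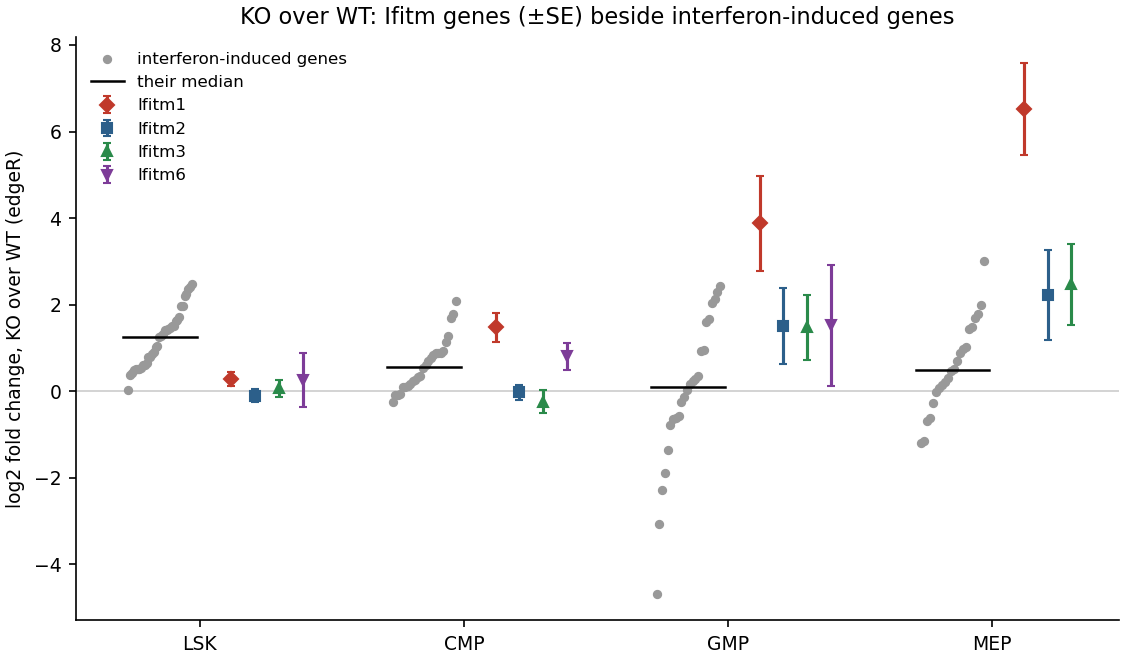
Log2 fold change of KO over WT (edgeR) in LSK, CMP, GMP and MEP for the interferon-induced genes and the Ifitm members. Each point is a gene, lines are medians of the induced genes, and bars on the Ifitm members are the SE. The induced genes had medians of 1.26 (LSK), 0.56 (CMP), 0.11 (GMP) and 0.49 (MEP), while Ifitm1 stood at 0.29, 1.47, 3.88 and 6.52.

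The genes around the cluster show whether the stretch of chromosome 7 that holds Ifitm1 differed between genotypes as well. GENCODE M21 annotates 47 genes other than the members within 300 kb, and 18 were tested in LSK, 14 in CMP and 16 each in GMP and MEP. In LSK 5 rose and 2 fell in KO against WT by edgeR, 7 of 18 where 18.8% of all genes passed. Gm15542 fell by 0.48 ± 0.09 on the log2 scale (edgeR adjusted p = 6.49e-04), Sigirr, a dampener of interleukin receptor signals, rose by 0.57 ± 0.12 (edgeR adjusted p = 0.00111), and Psmd13, a proteasome subunit, fell by 0.23 ± 0.06 (edgeR adjusted p = 0.00532). Irf7, whose start lies 299 kb from that of Ifitm1, rose by 1.79 ± 0.37. Sirt3, Pgghg and Rnh1 rose by 0.38, 0.37 and 0.22. No neighbour passed edgeR's adjusted threshold in CMP, GMP or MEP, where 1.84%, 0.204% and 0.00856% of all genes did. At an unadjusted p under 0.05 stood 3 in CMP (Sirt3, Sigirr and Irf7), 1 in GMP (Bet1l) and 1 in MEP (Nlrp6), named after their values were seen, where 12.9%, 6.45% and 6.92% of all genes did. In MEP the median of the 16 neighbours was 0.50 and the range -0.26 to 2.11, the highest being Nlrp6 at 2.11 ± 0.85 (edgeR adjusted p = 0.662).

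**Figure D5:**
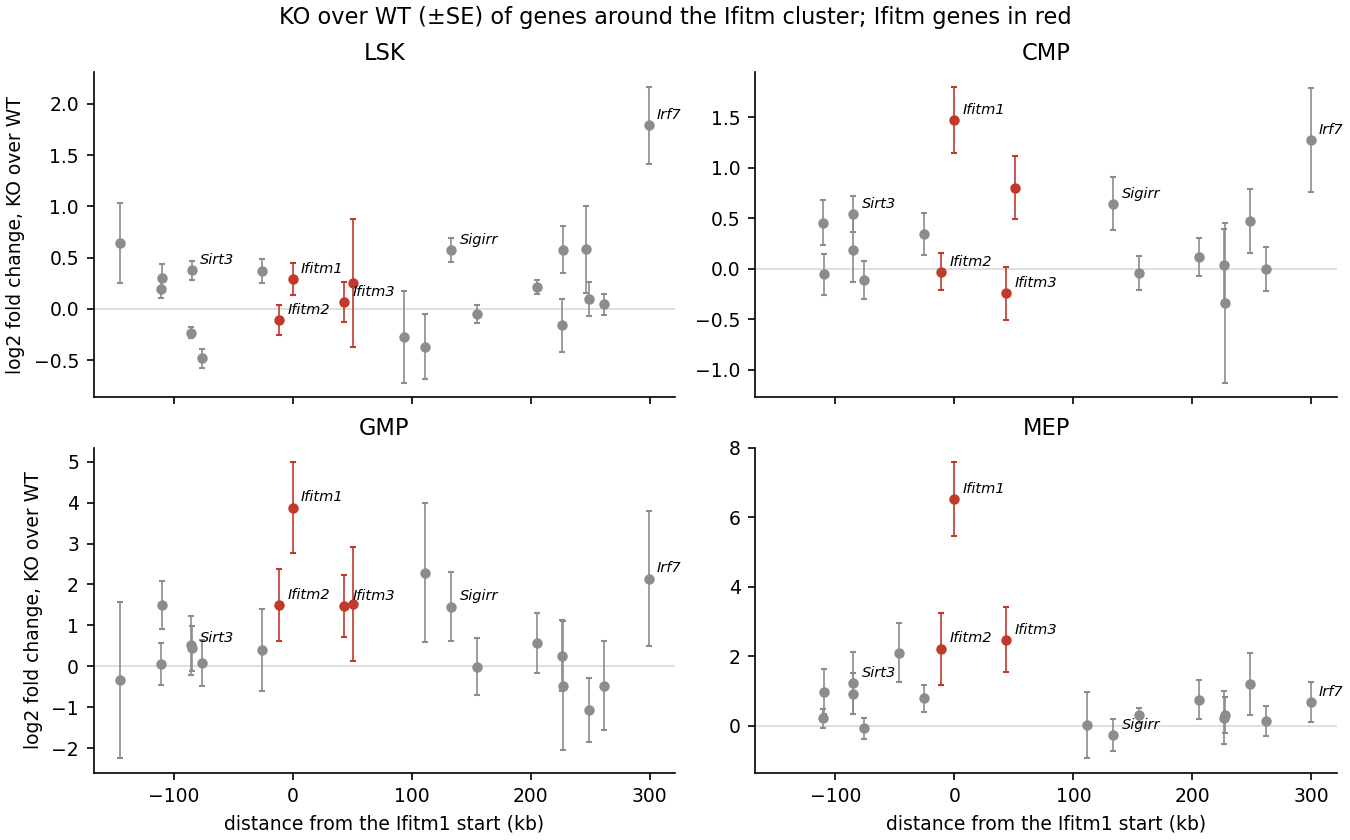
Log2 fold change of KO over WT with its SE (edgeR) for genes within 300 kb of the Ifitm cluster, by distance from the Ifitm1 start in kb, in LSK, CMP, GMP and MEP; Ifitm genes are in red. Ifitm1 stands at 6.52 in MEP, where the neighbours lie between -0.26 and 2.11.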

How the data were processed

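Bulk RNA was measured in 64 libraries made by Smart-seq2 and tagmentation, per the labels' protocols, so reads carry neither strand nor molecule and counting error alone understates the noise. Values are deposited as raw counts of reads for each Ensembl gene; the submitters' processing notes name featureCounts and mm10 (GRCm38), and no source used here gives the aligner or any version. Symbols and positions came from GENCODE M21 and promoter sequences from RefSeq. Spike-ins were left out of library sizes.

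Each population was fitted with its 3 genotypes in 1 edgeR 4.0.16 quasi-likelihood model (robust, TMM, R 4.3.3) on genes kept by filterByExpr (minimum count 10, minimum total 15), and p-values were adjusted after Benjamini-Hochberg across every kept gene, with 0.05 as threshold. CPM levels use the TMM-scaled library size, and the SE is the absolute log2 fold change over the square root of F. CMP, GMP and MEP were also fitted together on the genes that all their tables list. Correlations used log2 CPM (prior count 2) with 100000 permutations within genotype, two-sided.

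The members and the gene lists were chosen with earlier results of these data known. Named list genes are the interferon factors, of which not every one is reported here, and the 4 genes with the smallest unadjusted p per list in LSK and CMP; for GMP and MEP, where none passed, only ranges are given. Named neighbours are the 4 with the smallest unadjusted p, and the others that passed were named after their values were seen. The fit was tested on simulated counts. CMP, GMP and MEP titles share numbers; of the 6 pairs of groups compared, MEP and CMP in WT had every same-numbered pair correlated over 0.1 in its deviations from the group means (0.22 to 0.35, the pairing being read from the data, not the labels), and the blocked value is given there. Alternatives were RLE scaling, no filter or a minimum count of 30, DESeq2 1.42.0, limma voom 3.58.1, 2-group fits, a block for the series or for the title number, and leaving out each library in turn. Leaving out libraries with a TMM factor under 0.8 was added after the data were seen.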

Additional observations from a re-analysis of the deposited data

Results flagged for a closer look

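In 10 of 38 groups of 4 to 10 libraries, the highest library of a member or read ratio stood apart from the rest by Dixon's test. The test's rate of 1 in 20 groups holds for normal values. Here CPM and ratios were used without logs and the same libraries recur across groups, so 10 of 38 is not read against that rate. MEP KO 15 did so for Ifitm1 (1969 CPM, the other KO libraries 115 to 233), Ifitm2 (1194 CPM, others 78.6 to 121) and Ifitm3 (426 CPM, others 41.1 to 50.5), and CMP KO 15 for the ratio of Ifitm1 to Ifitm2 reads (2.58, others 1.41 to 1.61). MEP HET 8 did so for Ifitm1 (35.1 CPM, the other HET libraries 9.93 to 15.9), Ifitm2 (460.3 CPM, others 41.0 to 106) and Ifitm3 (80.9 CPM, others 10.6 to 23.6). MEP HET 8 also had the highest erythroid marker sum of the MEP libraries, 8856 CPM, and MEP KO 15 and MEP HET 8 are among the libraries with a TMM factor under 0.8; the part of these in the values was not tested. In LSK the libraries were HT22.6 (HET) for Ifitm2 (183 CPM, others 94.7 to 139), and, at low levels, HT20.5 (HET) for Ifitm6 (4.67 CPM, others 0.492 to 1.94) and WT24.10 for Ifitm6 (3.35 CPM, others 0.349 to 1.21).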

How the results depend on the processing

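Values are log2 fold changes unless they are counts or correlations, and the cause of each shift was not tested. The number of members called between populations moved as follows: WT MEP against CMP from 1 to 2 with a minimum count of 30, DESeq2, limma voom, the title number as a replicate block and without low-factor libraries (those with a TMM factor under 0.8); HET GMP against CMP from 1 to 2 with voom and without low-factor libraries; HET GMP against MEP from 1 to 2 without low-factor libraries; WT GMP against CMP from 0 to 1 with both; and WT GMP against MEP from 1 to 2 with voom, which called up to 57.5% of all genes between populations (WT GMP against CMP). Voom called 4 members in GMP HET against WT (50.9% of all genes), where edgeR called 0, and 2 interferon-list genes in MEP KO against WT (1.36% of all genes), where edgeR called 0. With each library left out, WT MEP against CMP and WT GMP against MEP called 0 to 1 members and the CMP interferon lists 3 to 9 genes. With the series as a block those lists kept 1 call, and Ifitm1 in KO was 0.94 against WT and 1.08 against HET in CMP and 4.22 and 3.10 in MEP. In MEP, Ifitm1 was 4.88 against WT and 3.71 against HET with voom, 4.69 and 3.70 without low-factor libraries, and 4.68 to 6.76 and 3.42 to 5.53 with each library left out. Values that changed sign missed the edgeR threshold in the reported fit. In HET against WT these were, with voom, LSK Ifitm3 (0.11), GMP Ifitm1 (-0.83) and Ifitm2 (-1.19), and MEP Ifitm3 (-0.48); with the series block, LSK Ifitm6 (-0.0554) and MEP Ifitm3 (-0.36); GMP Ifitm2 with no filter (-0.00277) and in a 2-group fit (-0.0204); MEP Ifitm2 with DESeq2 (-0.0172); and without low-factor libraries MEP Ifitm2 (-0.0253) and Ifitm3 (-0.58). Between HET populations, voom gave Ifitm1 GMP against CMP -0.24, Ifitm2 GMP against CMP -0.73, MEP against CMP -0.69 and GMP against MEP -0.0368, and Ifitm3 GMP against MEP -0.16; the title number block gave Ifitm2 GMP against CMP -0.0126 and MEP against CMP -0.34; and Ifitm2 MEP against CMP was -0.0109 with a minimum count of 30 and -0.75 without low-factor libraries. With the series subtracted, correlations with the interferon index were -0.17 for Ifitm1 and -0.10 for Ifitm2 in LSK, -0.0112 for Ifitm1 and -0.0807 for Ifitm3 in CMP, and 0.0798 for Ifitm2 and 0.17 for Ifitm3 in MEP, and that of Ifitm2 in CMP was 0.0441 with RLE scaling and 0.0481 without low-factor libraries. With each library left out, sign changes occurred in HET against WT for LSK Ifitm3 (-0.28 to 0.0493) and Ifitm6 (-0.00476 to 1.16), CMP Ifitm1 (-0.36 to 0.30) and Ifitm6 (-0.0687 to 0.29), GMP Ifitm2 (-0.62 to 0.19), and MEP Ifitm2 (-0.0355 to 1.02) and Ifitm3 (-0.60 to 0.32); in HET GMP against CMP for Ifitm2 (-0.35 to 0.48), in HET MEP against CMP for Ifitm2 (-0.73 to 0.17), in HET GMP against MEP for Ifitm2 (-0.35 to 1.03) and Ifitm3 (-0.24 to 0.80); and in WT GMP against CMP for Ifitm1 (-0.00133 to 0.66). Same-numbered libraries of MEP and CMP WT deviated together, and those of the other 5 pairs of groups did not all do so: there the deviations correlated at -0.45 to 0.69, and not every library correlated best with its own number. The replicate block changed no other tested call of a member and moved no other count of calls by over 1.5 times. MEP WT libraries held 15 to 23 Ifitm1 reads each, which limits the precision of the Ifitm1 fold changes against them.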
